A study of Mus musculus with 12 samples.

Results

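A set of 10 genes whose products fold chromosomes into loops was followed across mouse embryonic stem cells of 4 genotypes: Ctcf, Smc1a, Smc3, Rad21, Stag1, Stag2, Nipbl, Wapl, Pds5a and Pds5b. They were taken by name, as the core subunits of cohesin, its loading and release factors and the DNA-binding protein that positions it, with earlier results of these data known. All 10 were found among the 43346 genes of the deposited table, and all 10 passed the filter on low counts that left 17148 genes for testing. Cohesin is a ring of SMC1A, SMC3 and RAD21 with either STAG1 or STAG2. NIPBL drives its loading and its extrusion of DNA loops, WAPL with the PDS5 proteins releases it, and CTCF bound to DNA halts it, so that loop and domain borders form at CTCF sites. In embryonic stem cells these proteins hold together sister chromatids and shape the contacts between promoters and distal elements.

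RNA was sequenced from 12 libraries, 3 from each group. B6 cells were C57BL/6J and D2 cells were DBA/2J, both inbred strains. The other groups were reciprocal congenic lines, in which a stretch of chromosome 13 came from the other strain. B6-13D2, with the genotype B6.D2-(rs30079041-rs51756099)/Bakr, has a D2 segment on a B6 background. D2-13B6, with the genotype D2.B6-(rs29224292-rs13469455)/Bakr in the sample labels, has a B6 segment on a D2 background. The series text ends that segment at rs51756099. The start markers of the D2 and B6 segments also differ, so the lines may not exchange the same interval. Segment effects averaged over backgrounds therefore join segments that may differ in extent. All groups were cultured alike in serum with LIF, the MEK inhibitor PD0325901 and the GSK3 inhibitor CHIR99021. The series title places the data in a study of heterochromatin and genome contacts, and the reciprocal lines ask which differences go with the segment and which with the rest of the genome. The labels describe independent cultures of a single line per strain but title them technical replicates, so the p-values below measure only the spread between such cultures, and strain and cell line cannot be told apart. B6 replicate 3 has another line name than the other B6 libraries, the D2 titles and line fields name different lines, and the molecule field names genomic DNA where the protocol describes RNA. Columns of the congenic libraries have a prefix that parental columns lack, and a batch behind it cannot be told apart from the congenic lines.

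Libraries held 22184196 to 36411799 expected counts, and the 10 genes had 1623 to 10825 each per library. Of the 10 genes, 8 had whole counts in every library, whereas reads of Ctcf in some libraries and of Wapl in all of them were divided with other places in the genome. Genes overlapping the members had at most 83.0 counts in a library, against at least 1623 for a member; whether counting used the strand is not given in the sources used here. No member lies on chromosome 13, so none is inside the exchanged segment. Smc1a and Stag2 are on X.

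Markers of embryonic stem cells were present in every library, with 0 of 8 at 0 in any group. Their summed level, in TMM-scaled counts at a common library total (CPM), was 4645 to 4964 in B6 and 5382 to 5637 in B6-13D2. It was 3201 to 3286 in D2, and D2-13B6 had 3899.9 to 3948. Fibroblast or feeder markers such as Col1a1 were also abundant, again with 0 of 8 at 0. B6 had a sum of 10866 to 11759.6 CPM, D2 of 16204 to 19317, B6-13D2 of 3591 to 3683 and D2-13B6 of 8896 to 9281. Summed proliferation genes were lowest in D2, at 2775 to 2912 CPM, and highest in B6-13D2, at 4327 to 4429. The part of these differences in the results below was not tested, and in bulk RNA fewer cells of a type and less RNA per cell cannot be told apart.

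**Figure D1:**
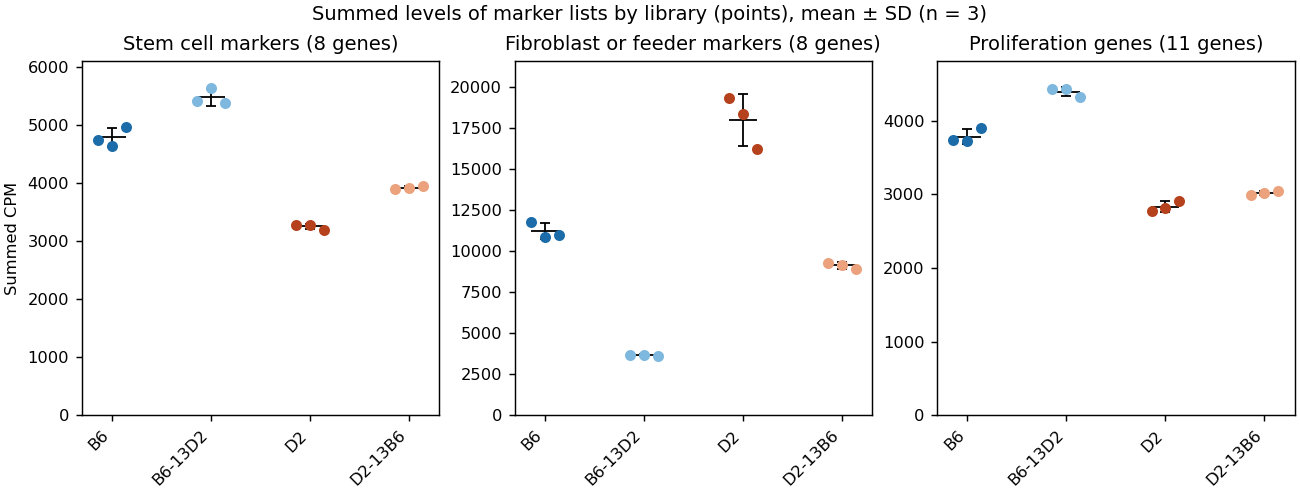
Summed CPM of the 8 stem cell markers, the 8 fibroblast or feeder markers and the 11 proliferation genes in each library (points), with the mean and SD of 3 libraries per group. Fibroblast or feeder markers were highest in D2 (16204 to 19317) and lowest in B6-13D2 (3591 to 3683), while stem cell and proliferation sums were lowest in D2.

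Promoter sequences are shown for 4 of the genes because they let Ctcf, Smc3 and Pds5b, which hold the same motif in the stretch shown, be set beside Wapl, the gene that differed most between the parental strains. RefSeq sequences of GRCm38.p6, the C57BL/6J reference, were found for 7 of the 10 genes (Ctcf, Smc1a, Smc3, Stag1, Wapl, Pds5a and Pds5b; entries for Rad21, Stag2 and Nipbl were not used here). Each line runs 5′ to 3′ from 120 bases before to 30 bases after the annotated transcript start. Capitals mark matches to GCCATNTT, the letters of a YY1-type motif. The Ctcf stretch is chr8:105636418-105636567 on the plus strand, that of Smc3 chr19:53600276-53600425 on the plus strand, that of Pds5b chr5:150673707-150673856 on the plus strand and that of Wapl chr14:34673808-34673957 on the plus strand.
Ctcf: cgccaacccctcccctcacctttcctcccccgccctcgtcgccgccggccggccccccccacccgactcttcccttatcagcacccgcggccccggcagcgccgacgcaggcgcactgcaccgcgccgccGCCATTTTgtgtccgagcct
Smc3: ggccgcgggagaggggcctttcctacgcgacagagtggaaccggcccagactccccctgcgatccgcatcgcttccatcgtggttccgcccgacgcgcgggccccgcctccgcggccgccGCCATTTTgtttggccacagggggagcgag
Pds5b: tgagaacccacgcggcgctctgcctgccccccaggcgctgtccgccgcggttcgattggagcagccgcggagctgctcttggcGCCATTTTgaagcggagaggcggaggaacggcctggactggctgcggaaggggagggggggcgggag
Wapl: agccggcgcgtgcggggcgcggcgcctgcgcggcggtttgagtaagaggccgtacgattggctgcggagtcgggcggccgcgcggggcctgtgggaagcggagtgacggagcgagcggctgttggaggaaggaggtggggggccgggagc
Counting the annotated RefSeq start as 1, the match began at position 11 in Ctcf, 1 in Smc3 and -37 in Pds5b. In GENCODE M21 Ctcf starts at 105636568, past the end of its stretch, so its match lies upstream there. Of the GENCODE M21 transcripts of Ctcf, 0 of 6 held the bases checked after the RefSeq start. Stag1 held another match at position -202, outside the stretch of that length. Over windows of 300 bases and both strands, 4 of the 7 promoters held GCCATNTT, against 6.1% of 32544 promoters of the same length. G and C made up 58.3% (Smc1a) to 80.3% (Pds5a) of the member windows. All promoters were not matched to them for this, here or for the motifs below. Whether the shares differ from promoters of like base content was not tested.

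Other motifs were searched in the same windows and on both strands. The GC box GGGCGG was in 7 of 7 member promoters and in 35.9% of all promoters. CCAAT, the NF-Y box, was in 4 of 7 (Smc1a, Stag1, Wapl and Pds5b) against 37.4%. TTTCCCGC, an E2F-type motif, was in 2 of 7 (Smc1a and Stag1) against 1.1%. AGGGGGC, the core of the motif that CTCF itself binds, was in 1 of 7 (Pds5b) against 10.7%, and the NRF1-type motif was in 0 of 7 against 1.0%. AGGGGGC and GGGCGG can share letters, although the match in Pds5b did not overlap one of the other kind. These matches describe letters in the reference sequence and are not measured binding.

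Per unit of exon length, Rad21 was the most abundant of the 10 transcripts and Pds5a the least. Levels are given here as TPM, counts per kilobase of all annotated exons of a gene scaled to one sum per library. Averaged over the 12 libraries, Rad21 stood at 237 TPM, Wapl at 124, Smc3 at 119.6 and Ctcf at 98.7. Smc1a followed at 67.9 and Nipbl at 34.0. STAG proteins and PDS5 proteins, which bind the ring as alternatives, had the lowest transcript levels: Stag2 28.8, Stag1 27.5, Pds5b 25.9 and Pds5a 20.9 TPM. Wapl and Smc3 were close and did not keep their order in every group, since D2 and D2-13B6 had 108 ± 4.46 and 109.7 ± 0.799 TPM of Wapl against 105 ± 9.91 and 122 ± 1.52 TPM of Smc3 (SD, n = 3). Ranks other than those of Rad21, Ctcf, Smc1a and Pds5b depend on the length used. With the longest annotated transcript in place of all exons, Smc3 (106 TPM) came before Wapl (100.4 TPM), Pds5a went from the last place to the seventh (35.3 TPM), Stag2 from the seventh to the eighth, Nipbl from the sixth place to the last (26.5 TPM) and Stag1 rose to the sixth (40.9 TPM), while Rad21 stayed first (198 TPM).

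**Figure D2:**
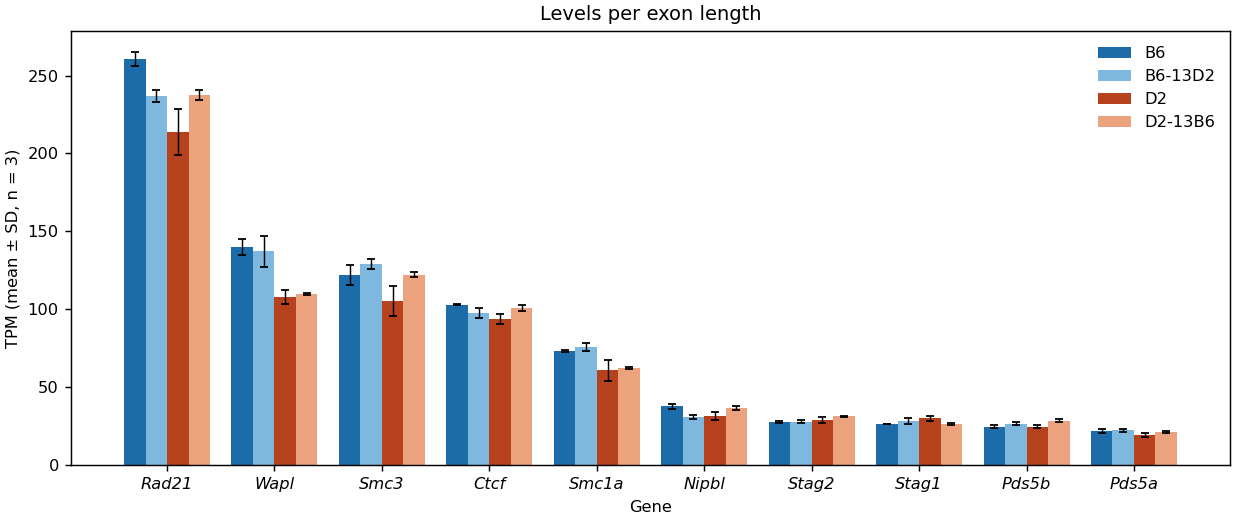
TPM of the 10 genes (bars, mean of 3 libraries; error bars, SD) in the 4 groups, in order of their mean over all libraries. Rad21 was highest in every group, and Nipbl, Stag2, Stag1, Pds5b and Pds5a had group means of 37.5 TPM or less.

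The parental strains differed at most of these genes. Of the 10, 7 were lower in D2 than in B6 (Wapl, Rad21, Smc1a, Nipbl, Smc3, Pds5a and Ctcf), 1 was higher (Stag1), and Stag2 and Pds5b were not called (edgeR's quasi-likelihood test, Benjamini-Hochberg adjustment over all 17148 genes at 0.05). Among all genes tested 60% were called, 30.3% lower and 29.8% higher in D2, so a call by itself is common here. The median log2 fold change of the 10 genes was -0.27, while that of all genes was 0.012. Over the same pair of groups all 8 fibroblast or feeder markers were higher in D2, and all 11 proliferation genes and 7 of 8 stem cell markers were lower; their part in the result was not tested.

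Where the segment and the background were separated, 6 of the 10 genes were lower with the D2 background. Each congenic line was compared with the parental strain that has the same chromosome 13 segment, which leaves the rest of the genome to differ. Ctcf, Smc1a, Smc3, Rad21, Wapl and Pds5a were called lower with the D2 background on both segment alleles. That is 6 of 10, where 29.1% of all genes followed the background in either direction and 17.7% did so downwards. Smc3 and Pds5a were no longer called in D2-13B6 against B6 with RLE size factors or DESeq2, which left 4 of 10, against 28.3% and 26.2% of all genes. Leaving out B6 replicate 2 also left 4. With only the libraries compared in each fit 3 stayed called (Smc1a, Rad21 and Wapl), where 28.9% of all genes followed the background. Ctcf lost its call in B6-13D2 against D2 with only those libraries in the fit (edgeR adjusted p = 0.0565), without B6-13D2 replicate 3 (0.0695) and without D2 replicate 2 (0.102). Stem cell marker sums split by background in the same direction and without overlap, at 4645 to 5637 CPM in the B6 and B6-13D2 libraries and 3201 to 3948 in those of D2 and D2-13B6. So did the proliferation sums, at 3720 to 4429 and 2775 to 3040 CPM, while the fibroblast or feeder sums of the backgrounds overlapped, although all 8 of these markers were called higher with the D2 background averaged over segment alleles. The part of these markers in the background result was not tested. Of the 10 genes, 1 (Nipbl) followed the segment allele on both backgrounds, lower with the D2 allele, as did 4.31% of all genes (7.33% in either direction). Leaving out D2 replicate 2 ended its call on the D2 background and left 0. Stag1 joined it under RLE size factors, Stag1 and Rad21 under DESeq2, and Rad21 under limma-voom, no filter or the replicate block.

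**Figure D3:**
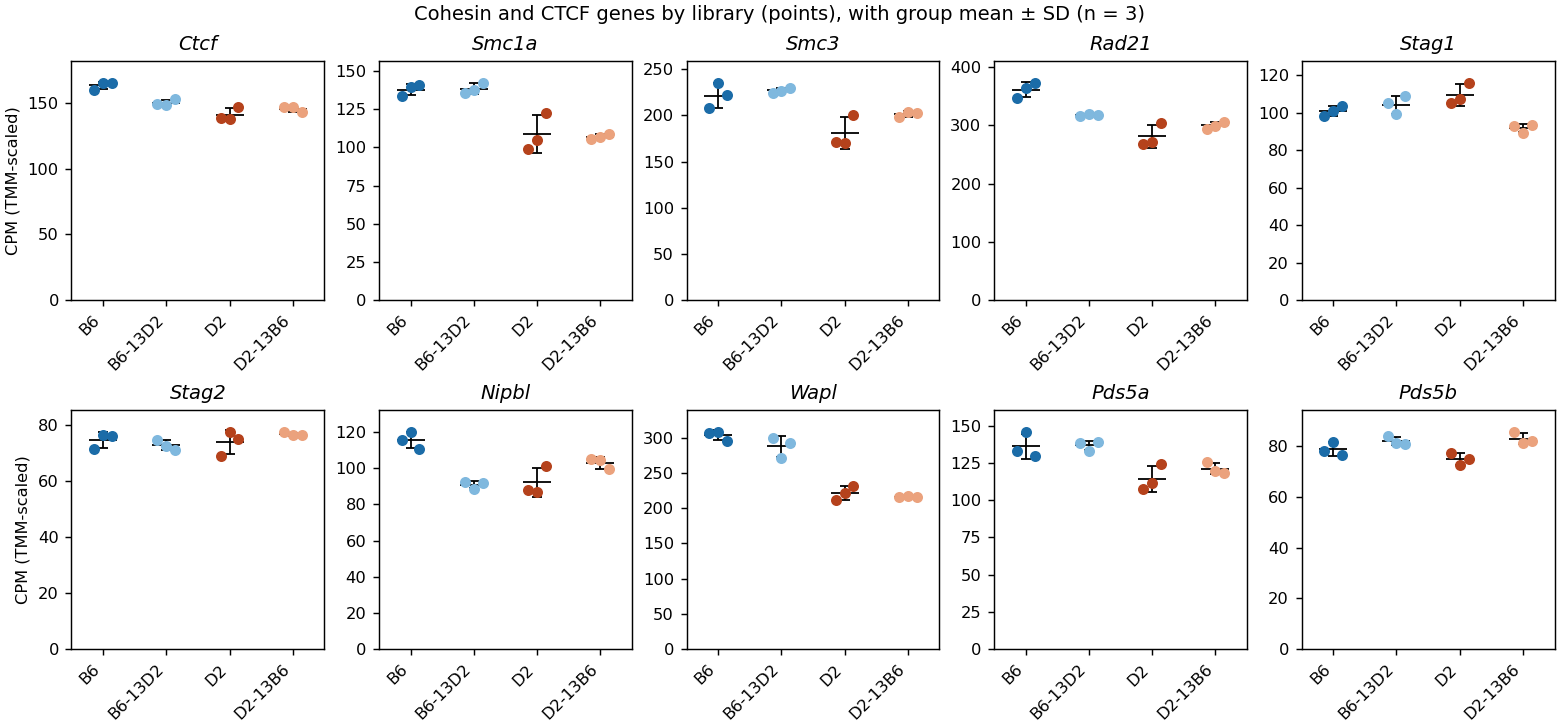
CPM of each gene by library (points), with the group mean and SD of 3 libraries; every axis starts at 0. For Wapl, Smc1a, Smc3, Rad21, Pds5a and Ctcf all 6 libraries on a B6 background lay above all 6 on a D2 background. Stag2 overlapped in most pairs of groups.

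Ctcf, at chr8:105636568-105682922 in GENCODE M21 (GRCm38, plus strand), encodes the zinc finger protein that anchors loops. Its level was 160.3, 165 and 166 CPM in the 3 B6 libraries and 139, 138 and 147 in D2. B6-13D2 had 149, 149 and 153 CPM, and D2-13B6 had 147, 147 and 143. B6 was above every other group with no overlap, and D2 and D2-13B6 overlapped. Ctcf fell by 13.7% from B6 to D2 (log2 -0.21, SE 0.034, edgeR adjusted p = 3.98e-05). Averaged over segment alleles, its difference on the D2 background was -0.13 on the log2 scale (SE 0.024, edgeR adjusted p = 0.000116). Its drop from B6 to B6-13D2, -0.12 (SE 0.034, edgeR adjusted p = 0.00536), lost its call with RLE size factors (adjusted p = 0.138) and with DESeq2 (adjusted p = 0.163). In order of level B6-13D2, D2-13B6 and D2 followed B6, and no neighbours among these 3 differed past the threshold.

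The ring core is made of the ATPases SMC1A and SMC3 and the RAD21 clasp that separase cuts at anaphase. Smc1a (chrX:152016428-152062694) stood at 134, 139 and 141 CPM in B6 and at 136, 138 and 142 in B6-13D2. On the D2 background it stood at 99.1, 105 and 123 CPM in D2 and at 106, 107 and 109 in D2-13B6. The groups split by background with no overlap, and the segment made no difference that passed the test. Averaged over segment alleles, Smc1a fell by 22% with the D2 background (log2 -0.36, SE 0.039, edgeR adjusted p = 1.64e-07); averaged over backgrounds, the D2 segment allele gave 0.013 (95% interval -0.068 to 0.095, edgeR adjusted p = 0.811).

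Rad21 (chr15:51962240-51991747) had its highest values in B6, at 347, 364 and 373 CPM. B6-13D2 followed with 316, 319.9 and 318 CPM, then D2-13B6 with 294, 299.6 and 306, and D2 with 268, 271 and 304. The B6 libraries overlapped no other group, and D2 replicate 3 lay inside the range of D2-13B6. Rad21 fell by 22.3% from B6 to D2 (log2 -0.36, SE 0.043, edgeR adjusted p = 1.08e-06). It was lower both with the D2 background (-0.22, SE 0.030, edgeR adjusted p = 2.8e-06) and with the D2 segment allele (-0.14, SE 0.030, edgeR adjusted p = 0.00115). Within single backgrounds the segment was called on the B6 background, at -0.18 (SE 0.043, edgeR adjusted p = 0.00123), and D2-13B6 against D2 gave 0.095 (SE 0.043, edgeR adjusted p = 0.0678), which was called under DESeq2, limma-voom, no filter or the replicate block, and without D2 replicate 3.

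Smc3 (chr19:53600398-53645833) encodes the other ATPase of the ring. B6 had 208, 235 and 222 CPM, B6-13D2 had 224, 227 and 230.2, D2-13B6 had 198, 204 and 203, and D2 had 171, 171 and 201. The highest D2 library, replicate 3, lay among those of D2-13B6. Smc3 fell by 14.9% with the D2 background averaged over segment alleles (log2 -0.23, SE 0.038, edgeR adjusted p = 2.48e-05). From D2 to D2-13B6 it rose by 0.16 on the log2 scale (SE 0.054, edgeR adjusted p = 0.0184), and this call was lost without D2 replicate 1, D2 replicate 2, D2-13B6 replicate 2 or D2-13B6 replicate 3, and with the filter at a mean CPM of 1. Its drop from B6 to D2-13B6, -0.14 (SE 0.054, edgeR adjusted p = 0.036), was lost with RLE size factors, DESeq2 or only the libraries compared, and without B6 replicate 2 or 3, D2 replicate 1 or any D2-13B6 library.

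STAG1 and STAG2 are alternative subunits that give cohesin partly different binding sites. Stag1 (chr9:100597798-100959375) was the only member higher in D2 than in B6. The B6 libraries had 98.2, 101 and 104 CPM, and D2 had 105, 107 and 116. B6-13D2 had 105, 99.2 and 109 CPM, and D2-13B6 had 93.0, 89.2 and 93.4. D2-13B6 lay below all other groups with no overlap. The rise from B6 to D2 was 8.14% (log2 0.11, SE 0.044, edgeR adjusted p = 0.0364), and it lost its call without B6 replicate 1, B6 replicate 2 or D2 replicate 3, or with only the libraries compared. Stag1 fell by 15.9% from D2 to D2-13B6 (log2 -0.25, SE 0.044, edgeR adjusted p = 9.12e-05) and was higher with the D2 segment allele averaged over backgrounds (0.15, SE 0.031, edgeR adjusted p = 0.000893). On the B6 background alone, B6-13D2 against B6 gave 0.046 (SE 0.044, edgeR adjusted p = 0.392). That difference was called only under RLE size factors or DESeq2.

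Stag2 (chrX:42149317-42277185) lay at 71.3 to 76.3 CPM in B6 and 71.1 to 74.6 in B6-13D2, and at 69.1 to 77.5 in D2 and 76.3 to 77.3 in D2-13B6. It was not called in any of the 9 contrasts. From B6 to D2 it gave a log2 fold change of -0.012 (95% interval -0.105 to 0.081, edgeR adjusted p = 0.828). With only the libraries of D2-13B6 and B6 in the fit it was called higher in D2-13B6 (0.11, edgeR adjusted p = 0.0234). Taken within each library, Stag2 made up 51.2% ± 0.498 of the summed Stag1 and Stag2 TPM in B6, 49.8% ± 1.45 in B6-13D2, 49.0% ± 1.51 in D2 and 54.3% ± 0.560 in D2-13B6 (SD, n = 3). With the longest annotated transcript as the length these shares were 42.5% ± 0.487, 41.2% ± 1.41, 40.4% ± 1.46 and 45.6% ± 0.560, so which of the 2 genes was higher depends on the length. With either length D2-13B6 stood apart from the other groups, whose libraries overlapped except between B6 and D2.

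Nipbl (chr15:8290617-8444463) encodes the cohesin loader. It had 116, 119.99 and 111 CPM in B6, 92.1, 88.7 and 91.8 in B6-13D2, 88.0, 87.0 and 101 in D2, and 105, 104 and 99.3 in D2-13B6. B6 was highest and overlapped no group, D2-13B6 came next, and D2 overlapped both congenic lines; its replicate 3 lay inside the range of D2-13B6. Nipbl fell by 20.5% from B6 to D2 (log2 -0.33, SE 0.051, edgeR adjusted p = 2.21e-05). In B6-13D2 it fell by 21.3% relative to B6 (log2 -0.35, SE 0.050, edgeR adjusted p = 1.19e-05). From D2 to D2-13B6 it rose by 12% (log2 0.16, SE 0.050, edgeR adjusted p = 0.00979). Averaged over backgrounds the D2 segment allele went with -0.25 (SE 0.036, edgeR adjusted p = 1.61e-05), the lowest value of the 10 for the segment. The background effect averaged over segment alleles was -0.075 (SE 0.036, edgeR adjusted p = 0.0656).

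WAPL opens the ring and takes cohesin off chromatin, and Wapl (chr14:34673928-34747983) gave the widest difference of the 10 between the parental strains. It had 306, 308 and 295 CPM in B6 and 299.5, 271 and 293 in B6-13D2. The D2 libraries had 212, 222 and 232 CPM, and D2-13B6 had 216, 217 and 216. Both groups on the B6 background lay above both on the D2 background and did not overlap them. Wapl fell by 26.9% from B6 to D2 (log2 -0.45, SE 0.040, edgeR adjusted p = 3.24e-08), and averaged over segment alleles the D2 background gave -0.43 (SE 0.028, edgeR adjusted p = 1.85e-10). The D2 segment allele gave -0.020 (95% interval -0.080 to 0.040, edgeR adjusted p = 0.603). D2-13B6 against B6 gave -0.49 (SE 0.040, edgeR adjusted p = 1.07e-08). Every Wapl value includes reads that were divided with other places.

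PDS5A and PDS5B bind the ring and act with WAPL in release and with the acetyltransferases in holding it closed. Pds5a (chr5:65605721-65698273) had 133, 146 and 129 CPM in B6, 138, 133 and 139 in B6-13D2, 107, 111 and 124 in D2, and 126, 119.5 and 118 in D2-13B6. Again the backgrounds did not overlap. Pds5a fell by 13.8% with the D2 background averaged over segment alleles (log2 -0.21, SE 0.036, edgeR adjusted p = 4.24e-05). The call from B6 to D2-13B6, -0.17 (SE 0.051, edgeR adjusted p = 0.0100), was lost with RLE size factors, DESeq2, only the libraries compared, or without B6 replicate 2.

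Pds5b (chr5:150673739-150810690) was not called between the parental strains. It had 78.0, 81.7 and 76.3 CPM in B6, 83.9, 81.2 and 80.8 in B6-13D2, 77.4, 72.6 and 74.8 in D2, and 85.6, 81.2 and 82.0 in D2-13B6. The congenic lines were higher than D2 with no overlap and overlapped each other. Pds5b rose by 10.8% from D2 to D2-13B6 (log2 0.15, SE 0.039, edgeR adjusted p = 0.00355). B6-13D2 against B6 gave 0.059 (SE 0.040, edgeR adjusted p = 0.215), and it was called with RLE size factors (0.12, adjusted p = 0.0129), with DESeq2, and where the filter was a mean CPM of 1.

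**Figure D4:**
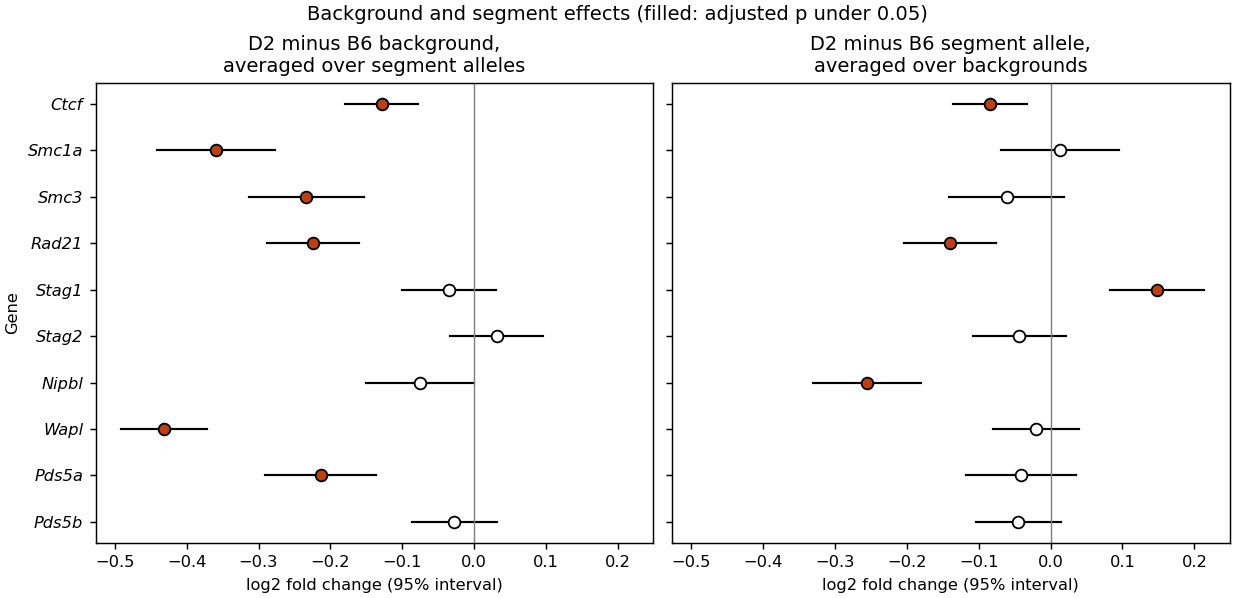
Log2 fold changes (points) with 95% intervals for the D2 background averaged over segment alleles (left) and the D2 segment allele averaged over backgrounds (right); filled points passed an edgeR adjusted p of 0.05. The background effect is lowest for Wapl (-0.43) and Smc1a (-0.36), and the segment effect is lowest for Nipbl (-0.25) and highest for Stag1 (0.15).

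Counts by contrast followed from these patterns. Averaged over segment alleles, 6 of 10 genes were lower with the D2 background and 0 were higher, while 73.5% of all genes were called and 34.7% were lower. Averaged over backgrounds, 3 genes (Nipbl, Rad21 and Ctcf) were lower with the D2 segment allele and 1 (Stag1) was higher, against 43.9% of all genes called, 27.3% lower and 16.5% higher; Ctcf lost its call with RLE size factors, DESeq2 and the filter at a mean CPM of 1. Of the calls over all genes in that contrast 37.7% were higher, which became 47.7% under RLE size factors and 48.3% under DESeq2. The segment on the B6 background (B6-13D2 against B6) gave 3 members called, all lower, where 58.3% of all genes were called and 32.9% were lower. Of all genes called there 43.5% were higher, which became 52.0% under RLE size factors and 51.9% under DESeq2. Under both of these 4 members were called: Rad21 and Nipbl were lower, Stag1 and Pds5b were higher, and Ctcf was not called. The segment on the D2 background (D2-13B6 against D2) gave 3 higher and 1 lower, where 57.3% of all genes were called, 27.6% higher and 29.7% lower. These 2 segment contrasts and the parental one share libraries, so their values are not independent of each other.

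Leaving out single libraries moved some of these counts. Among the D2 libraries, replicate 3 was the highest for 8 of the 10 genes and the lowest for 0, and its fibroblast or feeder sum was the lowest, at 16204 CPM against 18329 and 19317. Without it, 7 members were called in D2 against B6, all lower, and 6 in D2-13B6 against D2, where Rad21 and Pds5a joined. Without D2 replicate 2, the deepest library, Smc3 and Nipbl lost their calls in D2-13B6 against D2 and 2 members stayed called. Without B6 replicate 3, which has the other line name, 8 members differed between the parental strains, 3 between B6-13D2 and B6, and 7 between D2-13B6 and B6.

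Comparisons with a shared segment separated the backgrounds. B6-13D2 against D2 gave 7 members higher and 0 lower, where 74.6% of all genes were called and 36.7% were higher. D2-13B6 against B6 gave 8 lower and 0 higher, where 59% were called and 34.6% were lower, and RLE size factors or DESeq2 left 5 members called. Pds5b was the one member called higher there under both of these. B6-13D2 against D2-13B6, which differ in segment and background, gave 5 higher (Wapl, Smc1a, Stag1, Pds5a and Smc3) and 1 lower (Nipbl), where 70.2% of all genes were called, 31.8% higher and 38.4% lower. Whether the segment effect itself differed between backgrounds was also tested: 4 members passed (Pds5b, Smc3, Stag1 and Nipbl), where 64.5% of all genes did.

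Ratios of paired members within a library do not depend on scaling between libraries. Loader over release factor, Nipbl over Wapl, was a log2 ratio of expected counts of -1.66 ± 0.045 in B6-13D2, -1.39 ± 0.028 in B6, -1.27 ± 0.079 in D2 and -1.07 ± 0.044 in D2-13B6 (SD, n = 3). No pair of groups overlapped, although the highest B6 library (-1.36) came close to the lowest D2 library (-1.35). Reads of Wapl were divided with other places in every library. D2-13B6 had 0.475 Nipbl counts per Wapl count against 0.316 in B6-13D2. These ratios are given per count and not per length, so they compare groups and not the genes. Stag2 over Stag1 was highest in D2-13B6 (-0.26 ± 0.033) and overlapped no other group there. Smc1a over Smc3 was lowest in D2-13B6 (-0.91 ± 0.013), and the other groups overlapped, with means from -0.74 to -0.68. Rad21 over Smc3 was lowest in B6-13D2 (0.49 ± 0.018) and highest in B6 (0.71 ± 0.068), which overlapped D2 (0.64 ± 0.037). Pds5a over Pds5b was 0.79 ± 0.041 in B6 and 0.74 ± 0.038 in B6-13D2, which overlapped, and 0.60 ± 0.13 in D2 and 0.55 ± 0.017 in D2-13B6, which also overlapped. The D2 libraries overlapped those of B6-13D2 as well.

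**Figure D5:**
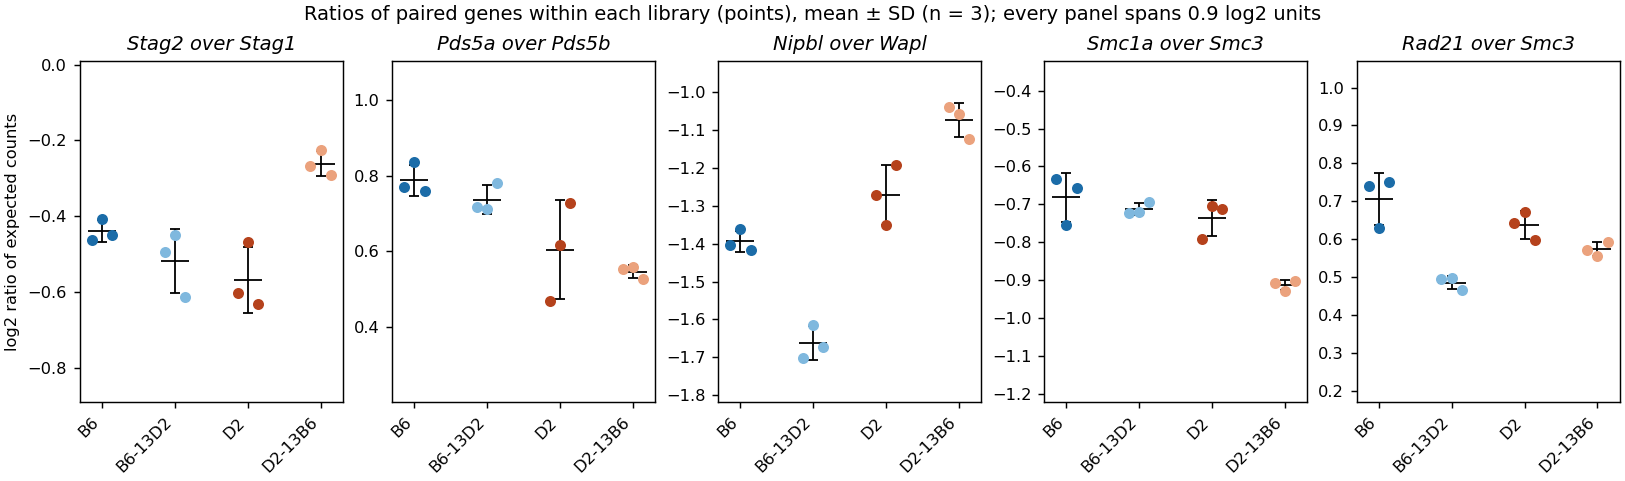
Log2 ratio of expected counts of 5 pairs of genes within each library (points), with the mean and SD of 3 libraries per group; every panel spans the same number of log2 units and its axis does not start at 0. Nipbl over Wapl separates all 4 groups, from -1.66 in B6-13D2 to -1.07 in D2-13B6, although B6 and D2 libraries come close.

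Among themselves, the members closest in pattern were Smc3 and Pds5a, whose mean-centred log2 CPM differed by a root mean square of 0.053 over the 12 libraries, and Ctcf and Rad21 (0.065). Stag2 and Wapl were farthest apart, at 0.24. Among 9639 genes with a mean of at least 10 CPM, the genes most like Ctcf were Ppp2r5e (0.031), Mesd (0.032) and Zfp451 (0.032), against a median of 0.22 over these genes. Those most like Rad21 were Snx5 (0.032), Rbm39 (0.038) and Jam2 (0.039), against a median of 0.24. These are descriptions over 12 libraries that share their groups.

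Related genes were taken as lists, and each count is given with the share of all genes called that way. The first list held cohesin regulators and variant subunits. Of its 19 genes 18 were tested, and 14 were lower and 1 higher in D2 than in B6 (30.3% and 29.8% of all genes), with a median of -0.37. The D2 segment on the B6 background went with 11 higher and 1 lower (25.4% and 32.9% of all genes), and the B6 segment on the D2 background with 15 higher and 0 lower (27.6% and 29.7%). The 11 proliferation genes moved with these counts, with 11 lower in D2 than in B6 and 9 and 7 higher in the segment contrasts, and their part was not tested. The lowest in D2 against B6 was Stag3, a meiotic STAG subunit, at 17.5 ± 0.507 CPM in B6 and 5.35 ± 1.19 in D2 (SD, n = 3; log2 -1.70, SE 0.10, edgeR adjusted p = 1.68e-10), and the one that was higher was Chtf8 (0.17, SE 0.042, edgeR adjusted p = 0.00206), part of the clamp loader that acts in cohesion. Smc1b, the meiotic SMC1, was the highest in D2-13B6 against D2, from 1.88 ± 0.273 to 11.7 ± 0.881 CPM (SD, n = 3; log2 2.65, SE 0.16, edgeR adjusted p = 2.61e-10). Rec8, the meiotic form of RAD21, rose by 0.57 (SE 0.082, edgeR adjusted p = 9.67e-06) from B6 to B6-13D2, and Esco1, an SMC3 acetyltransferase, was the lowest there at -0.20 (SE 0.075, edgeR adjusted p = 0.0262).

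Condensin and the SMC5/6 complex are built on related SMC proteins. Among their 14 listed genes 10 were lower, 0 higher and 4 not called in D2 against B6, where 30.3% of all genes were lower, with a median of -0.32. All 11 proliferation genes were lower in that contrast, with a median of -0.42, and their part in it was not tested. Ncapd2, a condensin I subunit, was the lowest of the 14 at -1.02 (SE 0.041, edgeR adjusted p = 7.74e-13). Both segment contrasts had 7 higher and 1 lower, where 25.4% (B6 background) and 27.6% (D2 background) of all genes were higher. Of the 11 proliferation genes 9 were higher and 0 lower on the B6 background, and 7 higher and 1 lower on the D2 background, and their part in these counts was not tested. Ncapg was the highest on the B6 background (0.23, SE 0.042) and Smc6 the lowest (-0.17, SE 0.051), and Ncapd3 was the highest (0.39, SE 0.048) and Nsmce3 the lowest (-0.17, SE 0.057) on the D2 background. Of 8 lamina genes 6 were lower and 1 higher in D2 than in B6, where 30.3% and 29.8% of all genes were. Lbr, the lamin B receptor, was the lowest (-0.59, SE 0.039) and Lmna, which encodes the A-type lamins, the highest (0.60, SE 0.058). Lmna was the lowest of the list in B6-13D2 against B6 (-1.11, SE 0.060) and in D2-13B6 against D2 (-0.90, SE 0.058), and it moved with the fibroblast or feeder markers in all 3 of these contrasts; their part in it was not tested. Banf1, a DNA bridging factor, was the highest in B6-13D2 against B6 (0.36, SE 0.039). Reads of Ncapd2, Ncapg and Lbr, like those of Chtf8, were divided with other places.

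CTCF partners and other architectural factors were split. In D2 against B6, 11 of 17 were lower and 2 were higher (30.3% and 29.8% of all genes), with a median of -0.16. The D2 segment on the B6 background gave 5 higher and 5 lower (25.4% and 32.9% of all genes), and the B6 segment on the D2 background gave 11 higher and 4 lower (27.6% and 29.7%). All 11 proliferation genes were lower in D2 than in B6, and 7 were higher and 1 lower in D2-13B6 than in D2; their part in these counts and in the Top2a values below was not tested. The topoisomerases, which relieve torsion at loop anchors, took opposite directions between the parental strains. Top2a, the form of dividing cells, stood at 606 ± 3.46 CPM in B6, 325 ± 18.6 in D2 and 629 ± 3.51 in D2-13B6 (SD, n = 3), a log2 fold change of -0.90 (SE 0.037) from B6 to D2 and of 0.95 (SE 0.037) from D2 to D2-13B6. Top2b stood at 68.7 ± 2.39, 93.0 ± 3.33 and 74.0 ± 1.55 CPM in the same groups, and at 47.2 ± 1.55 CPM in B6-13D2. Its log2 fold change from B6 to D2 was 0.44 (SE 0.041). Fibroblast or feeder markers moved the same way, with 8 of 8 higher in D2 than in B6. Of these markers 8 were lower in B6-13D2 than in B6, and 7 were lower in D2-13B6 than in D2. Their part in the Top2b values was not tested. Patz1 was the highest of the list in B6-13D2 against B6 (0.35, SE 0.040).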

How the data were processed

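RNA was measured in 12 libraries, 3 per group, and line names and replicate numbers come from the sample titles. The titles name the congenic lines only by codes, and their backgrounds and segments come from the genotypes in the sample labels. The authors deposited expected counts for each Ensembl ID in each library. The file's title credits them to EMASE, which splits a read with several possible places among them, so values can hold decimals. The submitters' processing notes name Bowtie 1.0.0, edgeR 3.34.1 and mm10 without their roles. Of the deposited values 88.1% were whole to within 1e-06. Symbols and exon lengths came from GENCODE M21 (GRCm38), which held 42462 of 43346 IDs and lacked 884. 0 columns were left out.

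Rounded counts went into edgeR 4.0.16 (R 4.3.3). Genes were kept by filterByExpr (minimum count 10), scaled by TMM and given a quasi-likelihood fit of 4 group means over 12 libraries, with Benjamini-Hochberg adjustment over 17148 genes within each contrast. A gene with an adjusted p under 0.05 is said to be called. SE is the absolute log2 fold change over the square root of F, and intervals are 95%. Effects averaged over segment alleles or backgrounds are means of the matching contrasts. Library totals of 22184196 to 36411799 set the precision. Members were named in full. In each further list, other than the proliferation genes and cell type markers, the highest and lowest called gene of 3 contrasts was named, at a mean CPM of at least 1. For Ctcf and Rad21 the 3 most alike genes were named. The members, lists and tests were chosen with earlier results of these data known.

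Alternatives were RLE size factors, DESeq2 1.42.0, limma-voom (limma 3.58.1) on unrounded values, a filter at a mean CPM of 1 or none, a replicate block, fits on only the compared libraries, each library left out in turn, 1 added to counts in ratios, and the longest transcript as length. The fits were also run on simulated counts with known changes in few genes and the same spread for every gene. Most genes were called between the parental strains, so that run does not test the setting of these data.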

Additional observations from a re-analysis of the deposited data

Results flagged for a closer look

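For 4 of the 10 genes, B6 and D2 backgrounds gave different effects of the segment by a test of the difference itself, where 64.5% of all genes did so. The contrast is B6-13D2 minus B6 plus D2-13B6 minus D2, which equals both congenic lines minus both parental strains, so anything the congenic libraries share is in it and cannot be told apart from an interaction. Each value is the sum of both differences and not their mean, and is positive where the congenic lines were higher. Pds5b gave 0.21 on the log2 scale (SE 0.056, edgeR adjusted p = 0.00344), and Smc3 gave 0.19 (SE 0.076, edgeR adjusted p = 0.0338). For Pds5b the differences were 0.059 for B6-13D2 minus B6 (edgeR adjusted p = 0.215) and 0.15 for D2-13B6 minus D2 (edgeR adjusted p = 0.00355). Stag1 gave -0.20 (SE 0.062, edgeR adjusted p = 0.00807) and Nipbl gave -0.18 (SE 0.071, edgeR adjusted p = 0.0318).

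In Pds5b the 6 congenic libraries had 80.8 to 85.6 CPM and the 6 parental libraries 72.6 to 81.7. Under RLE size factors or DESeq2 the calls of Stag1 and Nipbl were lost (RLE adjusted p = 0.0532 and 0.145) and those of Smc3 and Pds5b were kept. The Smc3 call was lost without B6 replicate 1, B6-13D2 replicate 2 or 3, D2 replicate 2, or D2-13B6 replicate 2 or 3. The Nipbl call was lost without B6 replicate 2, B6-13D2 replicate 2, D2 replicate 3 or D2-13B6 replicate 3, and with no filter on low counts. All 8 fibroblast or feeder markers were lower in this contrast, and their part in it was not tested.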

How the results depend on the processing

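No member's called difference changed sign in the alternatives run. Of the fold changes of members, 557 kept their side of the threshold under settings that kept all libraries, 19 became called and 24 lost their call; with 1 library left out these were 1043, 9 and 28. Members called in D2-13B6 against B6 came to 5 under RLE size factors and 5 under DESeq2, in place of 8, and the congenic minus parental contrast gave 2 with each, in place of 4. With each library left out in turn, members called ranged from 2 to 6 in D2-13B6 against D2 (2 without D2 replicate 2), from 6 to 8 in D2-13B6 against B6, and from 2 to 5 in congenic minus parental (2 without B6-13D2 replicate 2 and without D2-13B6 replicate 3). RLE size factors moved the median of all genes by at most 0.065 (log2). Ratios and counts of all genes called stayed within their spread or within 1.5 times.

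The replicate numbers did not pair the samples: same-numbered libraries of different groups correlated at -0.125 to 0.068 over 18 pairs, and 4 of 12 libraries correlated best with their own number. With the replicate block the parental contrast had 10167 genes called, the segment on the B6 background 9911 and the segment on the D2 background 9664. The same 3 contrasts had 8, 3 and 5 members called, as Rad21 joined in the last (edgeR adjusted p = 0.037), and the block changed no other member's call. Every member had at least 1623 counts in each library, and precision rests on 3 libraries per group.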
